A study of Mus musculus with 10 samples.

Results

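The H3K27me3 peaks of the R1000 line, a mafosfamide-resistant mouse B-cell lymphoma line, were compared with those of the parental line it was grown from. The members are the distinct peaks of the 2 deposited lists, 9595 in R1000 and 10778 in the parental line, together 20373 of the 74261 peaks of all 5 lines. Both lines are of the C57BL/6J strain, carry the Eμ-Myc transgene, in which the immunoglobulin heavy chain enhancer drives Myc in cells of the B lineage, and have the genotype Cdkn2a-/-. The parental line had no drug selection. R1000 consisted of the cells that survived stepwise culture to 1000 nM of mafosfamide, an active form of cyclophosphamide that crosslinks DNA, and was harvested after 23 days. Cells of both lines were grown without the drug for the ChIP-seq. R100, R500 and R4000, harvested after 10, 18 and 37 days at 100, 500 and 4000 nM, were used only to see which of these places they also covered. Each line has 1 list of positions without heights or read counts, so the depth is unknown, no difference between lines could be tested, and selection cannot be told apart from time in culture or from the making of 1 library.

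H3K27me3 is trimethylation of lysine 27 on histone H3. It is written by Polycomb repressive complex 2 (PRC2), whose catalytic subunit is usually Ezh2, and is read by Cbx proteins of Polycomb repressive complex 1. In vertebrates, the complex is known to favour CpG-rich promoters, above all those of developmental regulators such as Hox genes, which are silent in most adult cells. In B cells, the balance of this mark is known to guide the passage through the germinal centre.

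The sequences below show what kind of DNA lay under peaks of each class. They are read from the plus strand of mm9, with every CpG in capitals and no other letters in capitals. The central 200 bases are given for 2 of the widest regions of each line alone and for a region covered over much of its length in both lines, chr1:193007401-193010850, upstream of Atf3, which encodes a stress-induced transcription factor. Regions with annotated untranslated bases in the window were passed over. The R1000-only regions are chr1:9933151-9933950, whose nearest protein-coding transcription start site (TSS) is that of the predicted gene Gm10567, and chr1:42769951-42770750, intergenic and 15960 bp from the TSS of Pou3f3, a neural POU-domain factor. The parental-only regions are chr9:21048301-21049000, over the coding sequence of S1pr5, a sphingosine-1-phosphate receptor, and chr1:135225351-135225950 within Kiss1, which encodes kisspeptin, with 18 exonic bp.
R1000 only, Gm10567: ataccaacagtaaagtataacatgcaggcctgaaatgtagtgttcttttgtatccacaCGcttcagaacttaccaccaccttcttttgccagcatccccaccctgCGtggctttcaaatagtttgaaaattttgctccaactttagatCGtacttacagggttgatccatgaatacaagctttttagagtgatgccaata
R1000 only, Pou3f3: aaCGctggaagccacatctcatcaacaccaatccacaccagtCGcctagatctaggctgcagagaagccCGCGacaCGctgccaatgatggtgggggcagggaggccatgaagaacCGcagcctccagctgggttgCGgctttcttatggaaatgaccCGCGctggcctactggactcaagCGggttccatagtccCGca
Both lines, Atf3: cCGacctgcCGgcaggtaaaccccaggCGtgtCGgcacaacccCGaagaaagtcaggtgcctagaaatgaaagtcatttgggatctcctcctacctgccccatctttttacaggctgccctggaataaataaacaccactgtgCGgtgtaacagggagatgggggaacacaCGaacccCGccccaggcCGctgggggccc
Parental only, S1pr5: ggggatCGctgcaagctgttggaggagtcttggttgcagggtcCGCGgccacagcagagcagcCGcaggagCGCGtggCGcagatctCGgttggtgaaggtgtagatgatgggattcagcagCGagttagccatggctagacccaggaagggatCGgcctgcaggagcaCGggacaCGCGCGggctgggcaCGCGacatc
Parental only, Kiss1: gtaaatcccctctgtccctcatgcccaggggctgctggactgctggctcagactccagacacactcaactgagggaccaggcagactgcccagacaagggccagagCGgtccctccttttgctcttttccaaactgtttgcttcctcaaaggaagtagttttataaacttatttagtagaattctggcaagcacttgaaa
The numbers of CpG in these 200 bases were 3 and 11 for the R1000-only windows, 9 for the shared one, and 16 and 1 for the parental-only windows, so that single regions varied widely within a class.

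The central 100 bases of 4 peaks at genes described below are shown because the gene-level results turn on them; these 4 were chosen after their values were seen. The peak in Rpl27, chr11:101303951-101304550, holds 169 exonic bp of 600. The peak in Cxcr4, chr1:130488201-130488650, is intronic. The peak in Sox4, chr13:29043901-29044600, lies wholly in coding sequence. These 3 were in R1000 and not in the parental line, and the fourth, chr4:122909351-122909700 upstream of Heyl, was in the parental line and not in R1000.
R1000 peak, Rpl27: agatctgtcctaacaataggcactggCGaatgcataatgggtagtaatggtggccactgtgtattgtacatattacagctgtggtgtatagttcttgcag
R1000 peak, Cxcr4: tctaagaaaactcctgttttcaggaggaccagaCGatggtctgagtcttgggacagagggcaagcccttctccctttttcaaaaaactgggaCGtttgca
R1000 peak, Sox4: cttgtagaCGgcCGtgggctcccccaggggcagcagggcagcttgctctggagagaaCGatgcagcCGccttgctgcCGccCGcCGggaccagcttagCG
Parental peak, Heyl: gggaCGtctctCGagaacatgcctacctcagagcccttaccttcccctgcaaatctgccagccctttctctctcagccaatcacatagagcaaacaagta
The windows hold 1, 2, 8 and 2 CpG. The window in Sox4 has a GC content of 70.0%, against 43.0% in Rpl27, 48.0% in Cxcr4 and 52.0% at Heyl.

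The 2 lines had nearly the same length under peaks, but most peaks of each did not overlap a peak of the other. R1000 peaks covered 1.61 Mb and parental peaks 1.63 Mb, a ratio of 0.988, and the ratio of peak numbers was 0.890. Peaks had a median width of 100 bp in both lines. The R1000 list was somewhat richer in wide peaks, with 625 at least 500 bp wide against 549. The bases covered in both lines came to 569 kb, which is 34.9% of the parental bases and 35.3% of the R1000 bases.

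The overlap of the lists went with the width of the peaks. Of the R1000 peaks, 2866 (29.9%) overlapped a parental peak by at least 1 bp. Among R1000 peaks 50 bp wide, 8.43% did, among those of 150 to 200 bp 36.9%, and among those at least 500 bp wide 91.7%. A parental peak within 1000 bp was found for 59.2% of R1000 peaks, and an R1000 peak within 1000 bp for 52.8% of parental peaks. The parental peaks gave nearly the same shares, as the plot of overlap by width shows. All intervals given here cover counting only, not a repeat of the experiment.

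**Figure D1:**
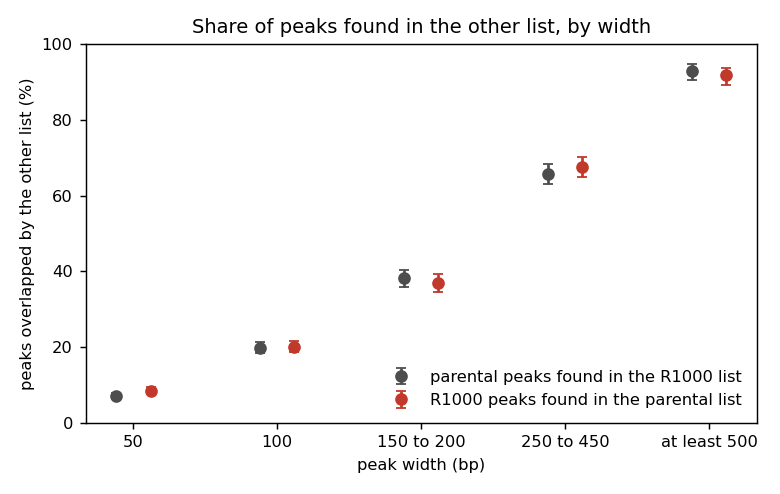
Share of peaks (%) of the parental line (grey) and of R1000 (red) that overlap a peak of the other line, by peak width in bp, with 95% Wilson intervals. The points of the 2 lines lie close together at every width and climb from 7.09 and 8.43% at 50 bp to 92.9 and 91.7% at 500 bp or more.

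The peaks of R1000 alone lay nearer to genes and in CpG-richer DNA than those of the parental line alone. Merging the 2 lists gave 6285 R1000-only regions (643 kb), 7429 parental-only regions (721 kb) and 3011 regions with peaks of both (1312 kb). A protein-coding TSS lay within 2 kb of 2841 R1000-only regions (45.2%, 95% Wilson interval 44.0 to 46.4%) and of 1690 parental-only regions (22.7%, 21.8 to 23.7%), against 54.1% of the shared regions. Exons of protein-coding genes were touched by 19.4% of R1000-only and 9.52% of parental-only regions. No protein-coding gene was touched by 45.0% and 58.4%.

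The base composition differed in the same order. The median ratio of observed to expected CpG in 500 bp around the centre was 0.376 in R1000-only regions, 0.220 in parental-only regions and 0.482 in shared regions, and the median GC content was 50.8, 45.8 and 52.4%. CpG-rich windows, with a ratio of at least 0.6 and a GC content of at least 50%, made up 25.2, 6.82 and 29.5% of the classes. The shares were also taken within classes of position and width. Among regions more than 5 kb from any TSS, 9.32% of R1000-only and 2.42% of parental-only windows were CpG-rich. Within 2 kb of a TSS, the shares were 42.8 and 19.6%, and among regions 50 bp wide they were 20.7 and 5.28%.

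**Figure D2:**
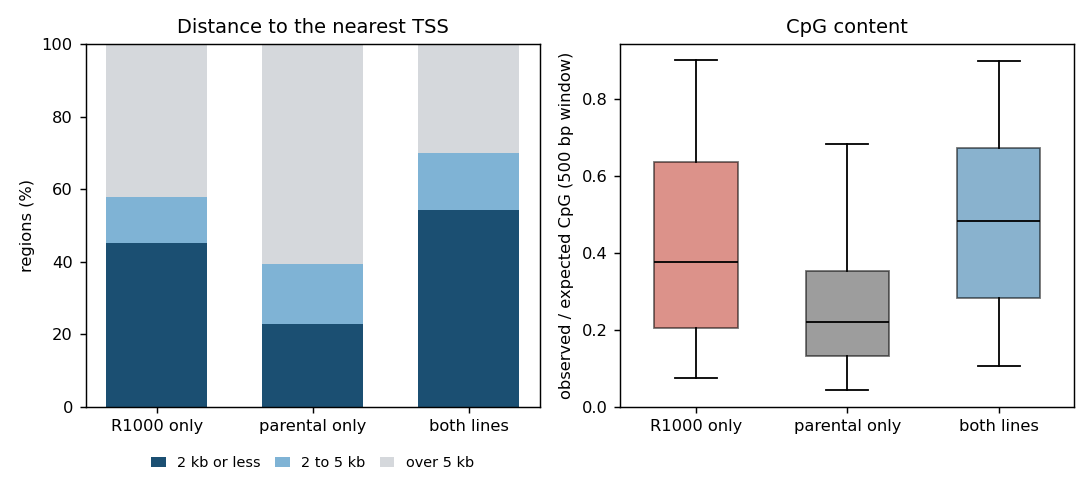
Left, share of regions (%) by distance to the nearest protein-coding TSS for regions of R1000 only, of the parental line only and of both lines. Right, ratio of observed to expected CpG in 500 bp around the region centre, where the line is the median, the box the quartiles and the whiskers the percentiles 5 and 95. For R1000-only, parental-only and shared regions in turn, 45.2, 22.7 and 54.1% lie within 2 kb, and the medians of the ratio are 0.376, 0.220 and 0.482.

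The other resistant lines, which did not enter the classes, held a larger share of the R1000-only than of the parental-only regions when all positions were counted. R100 overlapped 2505 of 6285 R1000-only regions (39.9%) and 1781 of 7429 parental-only regions, R500 held 37.2 and 25.1% of them, and R4000 11.3 and 5.84%. None of these 3 lines had a peak at 48.6% of R1000-only and 65.8% of parental-only regions. Within 2 kb of a TSS, the shares lay closer, at 51.9 and 46.6% in R100, 46.7 and 47.4% in R500, and 15.7 and 12.8% in R4000. More than 5 kb from any TSS, they were 27.1 and 15.1%, 26.9 and 16.1%, and 7.21 and 3.29%. Shared regions were found again far more often, 85.8% in R100, 87.7% in R500 and 56.3% in R4000. The R100 and R500 lists cover 5.04 and 4.53 Mb, so more regions of any class meet them than meet the R4000 list of 1.07 Mb. Part of the private peaks bordered on peaks of the other line, since 38.5% of R1000-only and 32.3% of parental-only regions lay within 1 kb of one.

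At promoters, R1000 gained more genes than it lost, and the excess lay close to the start of the gene. A promoter was counted as gained when R1000 peaks covered 150 bp or more (3 bins of 50 bp) and parental peaks none, as lost in the reverse case, and as shared with at least 150 bp in both. Of 22225 protein-coding genes, 190 (0.855%) were gained, 139 (0.625%) lost and 552 (2.48%) shared in the 5 kb upstream of the TSS. In a window reaching 2 kb to either side of the TSS, 381 (1.71%) were gained, 103 (0.463%) lost and 952 (4.28%) shared. The ratio of gained to lost genes was thus 1.37 upstream and 3.70 around the TSS. A promoter counted as gained in 1 window was never counted as lost in the other, and 108 were gained and 35 lost in both windows. Another 206 genes covered in R1000 around the TSS had 1 to 149 bp in the parental line, just outside the rule for gained genes, and 112 covered in the parental line had that little in R1000. Among the shared genes, R1000 covered more bases in 534, fewer in 363 and as many in 55.

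The profile around the TSS shows where the surplus sat. Parental coverage was highest 700 bp downstream, at 1.52% of genes, and R1000 coverage 500 bp downstream, at 2.15%. At 3 kb upstream, the order was the opposite, with 0.297% of genes in the parental line and 0.252% in R1000. Of the bases covered in R1000 at gained genes within 2 kb, 66.3% lay downstream of the TSS, against 55.1% of the parental bases at lost genes. CpG-rich promoters, by the same limits in 1 kb around the TSS, made up 79.8% of gained and 63.1% of lost genes, against 44.3% of all protein-coding genes. The gained genes were also covered by at least 150 bp in R100 in 80.8% of cases, in R500 in 71.9% and in R4000 in 28.3%. The lost genes were covered in R100 in 77.7% of cases, in R500 in 68.0% and in R4000 in 10.7%. Of all protein-coding genes, 17.5% were covered in R100, 13.3% in R500 and 5.51% in R4000 in this window.

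**Figure D3:**
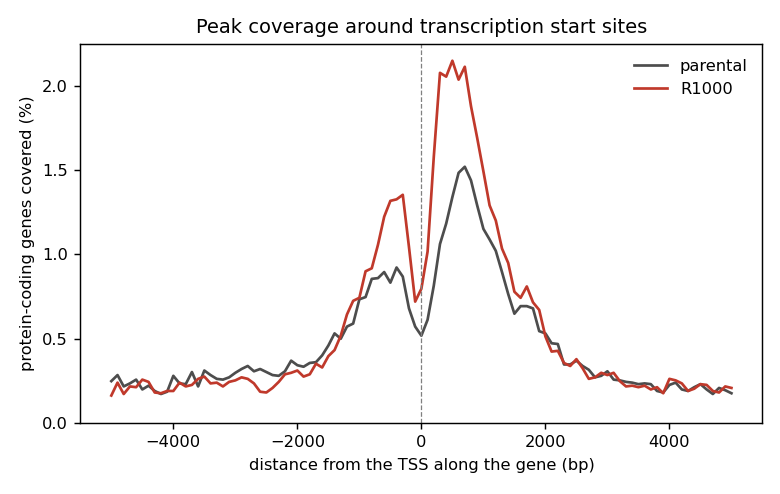
Share of 22225 protein-coding genes (%) covered by a peak at each distance (bp) from the TSS along the direction of the gene, in the parental line (grey) and R1000 (red). The maxima lie downstream, at 2.15% in R1000 and 1.52% in the parental line, both curves dip at the TSS itself, and at 3 kb upstream the parental curve is the higher one.

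The genes with the most covered bases among those gained included, beside predicted gene models at the start of chromosome 9 described further on, several regulators of development. The values below are covered bp, in the order parental, R100, R500, R1000 and R4000. Zic5, a zinc finger factor of the neural crest, had 0, 1202, 1102, 802 and 700 bp within 2 kb of its TSS. Sox4, a factor active in early lymphocytes and many embryonic tissues, had 0, 719, 1219, 800 and 0 bp. In this window, both were covered in R100, R500 and R1000 and free of peaks in the parental line, and Sox4 was free of them in R4000 too. Just outside the window, the parental line had a peak of 100 bp in Zic5, centred 2149 bp downstream of the TSS. Adra2a, an adrenergic receptor, had 0, 1850, 1650, 700 and 250 bp, and Rhpn2 0, 600, 450, 700 and 100 bp. At Rhpn2 too, the parental line had a peak of 100 bp outside the window, on its upstream side.

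In the 5 kb upstream, Rarg, the retinoic acid receptor gamma, had 0, 1000, 750, 650 and 100 bp. Next in rank among genes outside the chromosome 9 models came Sox12, with 0, 900, 1050, 600 and 100 bp, and Pou3f1, with 0, 1200, 1050, 600 and 250 bp; these 2 and the next 3 genes were named after their values were seen. Each of these genes had less coverage in R1000 than in R100, and none in the parental line, in that window. Gphn, which encodes the synaptic scaffold gephyrin, had 0, 650, 550, 500 and 250 bp. Tbx5, a heart and limb T-box factor, had 0, 700, 0, 400 and 0 bp, and Hoxb5 had 0, 950, 1150, 450 and 0 bp. A gain upstream did not mean a bare gene in the parental line, which had a peak of 200 bp in the coding sequence of Sox12 and a peak of 300 bp in an exon of Pou3f1.

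Among the 32 gene lists examined, the genes of cytosolic ribosomal proteins, the building blocks of the ribosome, had the most gained members. Within 2 kb of the TSS, 9 of 85 were covered in the parental line and 37 in R1000; 18 were gained (21.2%, against 1.71% of all protein-coding genes) and 1, Rpl26, was lost. The list had 56 genes with any peak there in either line, of which 48 had more covered bases in R1000 and 4 fewer, with a median difference of 175 bp. Over all 3223 protein-coding genes with any peak, 2168 had more and 936 fewer, with a median difference of 50 bp. In the 5 kb upstream, none of the list was gained, against 0.855% of all protein-coding genes. There, 2 were lost, Rpl26 and Rpl3 (2.35%, against 0.625%). Rpl3 had more coverage around its TSS in R1000, at 900 bp, than in the parental line, at 250 bp. R100, R500 and R4000 covered 61, 57 and 42 of the 85 within 2 kb, against 17.5, 13.3 and 5.51% of all protein-coding genes.

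The mark at these genes sat just inside the transcribed part. Of the 75 R1000 peaks centred within 2 kb of their TSSs, 97.3% were centred downstream, with a median of 638 bp. The 32 parental peaks there were placed much alike, with 90.6% centred downstream and a median of 681 bp. Rpl27 of the large subunit had 0, 250, 450, 600 and 250 bp, all of the R1000 bases in the single peak printed above. Rpl23 had 0, 400, 450, 500 and 150 bp, and Rpl37a 0, 600, 350, 450 and 250 bp. The coverage of Rpl8, with 0, 1000, 500, 300 and 750 bp, was higher in R4000 than in R1000. In all 4, each resistant line was above the parental value of 0. Rps15 of the small subunit had 0 and 300 bp in the parental line and R1000. Ribosomal protein genes have many processed pseudogenes, which share the exons and lack the introns, and how reads matching several places were treated is not given in the sources used here. Of the 5.10 kb of R1000 peaks at the 18 gained genes, 62.1% lay outside their exons, and 8 of the 18 had a peak without any exonic base. The part of reads from pseudogenes in these values was not tested.

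Of the factors of translation and RNA binding, 5 of 84 were gained (5.95%, against 1.71% of all protein-coding genes), none was lost and 5 were shared within 2 kb, all 5 of the shared genes with more covered bases in R1000. Eef2, the elongation factor that moves the ribosome along the mRNA, had 0, 950, 600, 400 and 250 bp in the same order of lines. The other gained members were Eif3d, Eif4b, Eif4g2 and Eif4enif1, with 300, 200, 150 and 150 bp in R1000. Mitochondrial ribosomal protein genes had 1 gain among 76 (1.32%), Mrpl35 with 0 and 200 bp, and no loss. All 13 of them with any peak within 2 kb had more covered bases in R1000, 1.25 kb in all against 0.10 kb. No expression was measured here, so the mark at these genes could not be set against their transcription.

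Of the B-cell receptor and surface genes, 4 of 31 were gained within 2 kb (12.9%, against 1.71% of all protein-coding genes) and none was lost. Among the gained, Cd79b, a signalling chain of the B-cell receptor, had 0, 1000, 150, 150 and 0 bp. Cd24a, a glycoprotein of immature B cells, had 0, 600, 950, 400 and 150 bp, and Cxcr4, the receptor for the chemokine Cxcl12, had 0, 750, 700, 450 and 700 bp. Cd79b was thus at the minimum of 150 bp in R1000, and each R1000 peak at these 3 genes was centred 425 to 1625 bp downstream of the TSS. Flt3, a receptor of early progenitors, was shared, with 1000 and 1050 bp.

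B-cell transcription factors had 1 gain of 29 (3.45%, against 1.71% of all protein-coding genes) and no loss within 2 kb. The gain was Pou2af1, a B-cell coactivator of octamer factors, with 0 and 150 bp. Id1 and Id2, inhibitors of E proteins, and Bcl6, the repressor of the germinal centre, were shared. Id1 had 2850 and 2837 bp, Id2 407 and 607 bp, and Bcl6 650 and 600 bp. Coverage of these 3 differed by at most 200 bp between the lines. Genes listed as markers of T cells, myeloid cells and erythroid cells had 5 of 31 covered in each line, all 5 shared. Gata3, the T-helper factor, had 900, 1050, 1300, 150 and 0 bp across the 5 lines. Tcf7, another T-cell factor, had 450 and 200 bp, while Tal1, a factor of blood stem cells, had 1781 and 1981 bp.

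**Figure D4:**
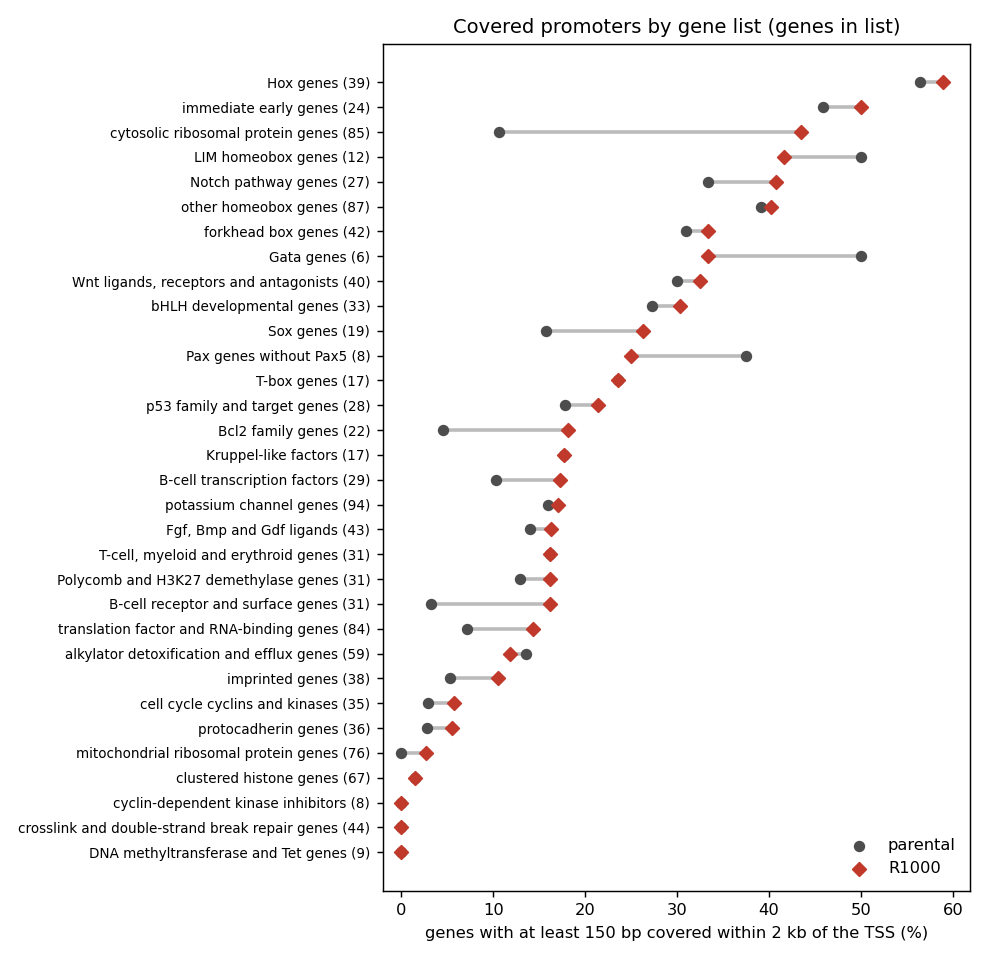
Share of each of 32 gene lists (%) with at least 150 bp covered within 2 kb of the TSS in the parental line (grey circles) and R1000 (red diamonds), with the number of genes in parentheses. Cytosolic ribosomal protein genes show the longest step among the lists, from 10.6% to 43.5%, while Hox genes are high in both lines, at 56.4 and 59.0%.

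Immediate early genes, which answer to growth signals within minutes, were covered often in both lines and further in R1000. Of 24 genes, 3 were gained (12.5%, against 1.71% of all protein-coding genes), none was lost and 9 were shared within 2 kb, and R1000 covered more bases in 8 of the 9 and fewer in none. Egr2 had 700 parental and 1600 R1000 bp, Egr3 1500 and 1950 bp, and Ier3 150 and 1100 bp. Myc itself, the oncogene that the transgene also carries, had 1100, 2546, 2496, 1550 and 1300 bp across the 5 lines. Nr4a3 had 1400 bp in both lines. Of the 16 genes with any peak, 12 had more bases in R1000 and 3 fewer, among them Fosl1, with 150 and 100 bp, and Fosl2, with 150 and 56 bp. The gains were Dusp2 (350 bp in R1000), Egr4 (150 bp) and Ier2 (150 bp). Over all shared promoters, R1000 covered more bases in 534 of 952.

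The Bcl2 family, which sets the threshold of apoptosis, had 3 gains of 22 genes (13.6%, against 1.71% of all protein-coding genes) and no loss within 2 kb, each gain at 150 bp in R1000. They were Mcl1, which protects cells from death, and Bak1 and Hrk, which promote it. Bik, another promoter of death, was shared, with 850 parental and 609 R1000 bp. Of the Notch pathway, 2 of 27 genes were gained (7.41%), 1 was lost (3.70%) and 7 were shared (25.9%), against 1.71, 0.463 and 4.28% of all protein-coding genes, with more bases in R1000 in 6 of the 7. Nrarp, a feedback inhibitor of the pathway, had 0 and 450 bp, Notch2 0 and 150 bp, and Dll1, a ligand, 1400 and 1950 bp. Heyl, a transcriptional repressor of the Hey family, went the other way, with 500, 1250, 1150, 0 and 900 bp across the 5 lines. R1000 was the only one of the 5 lines without a peak within 2 kb of its TSS.

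Genes lost in R1000 made up the shorter list. In the 5 kb upstream, Bahd1, which encodes a heterochromatin protein, had 750, 1100, 600, 0 and 400 bp, again in the order of the lines. Heyl had 700, 1798, 2048, 0 and 450 bp, Ccdc136 700, 650, 1150, 0 and 350 bp, and Arntl, the clock gene also named Bmal1, 700, 50, 250, 0 and 200 bp. These 4 had upstream peaks in every line but R1000. Lrp4 had 500 bp in the parental line, and Rc3h1, 9330182L06Rik and Cabp2 450 bp each. A loss upstream often left peaks inside the gene, since R1000 kept a peak of 350 bp in Arntl centred 746 bp downstream of its TSS, and 4 peaks in the first 3 kb of Lrp4.

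Around the TSS, Arhgef37 had the most parental coverage of the lost genes, with 850, 950, 1200, 0 and 100 bp. Irg1, an enzyme of activated macrophages that makes itaconate, had 550, 357, 950, 0 and 0 bp. Ica1 had 450 bp in the parental line and Tmem64 423 bp. The remaining lost genes named by rank were 9330182L06Rik with 600 bp, B930041F14Rik with 500 bp and Gm10837 with 450 bp. All of these lost genes were covered in R100 and R500 as well, as the plot of named genes shows for 5 of them.

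**Figure D5:**
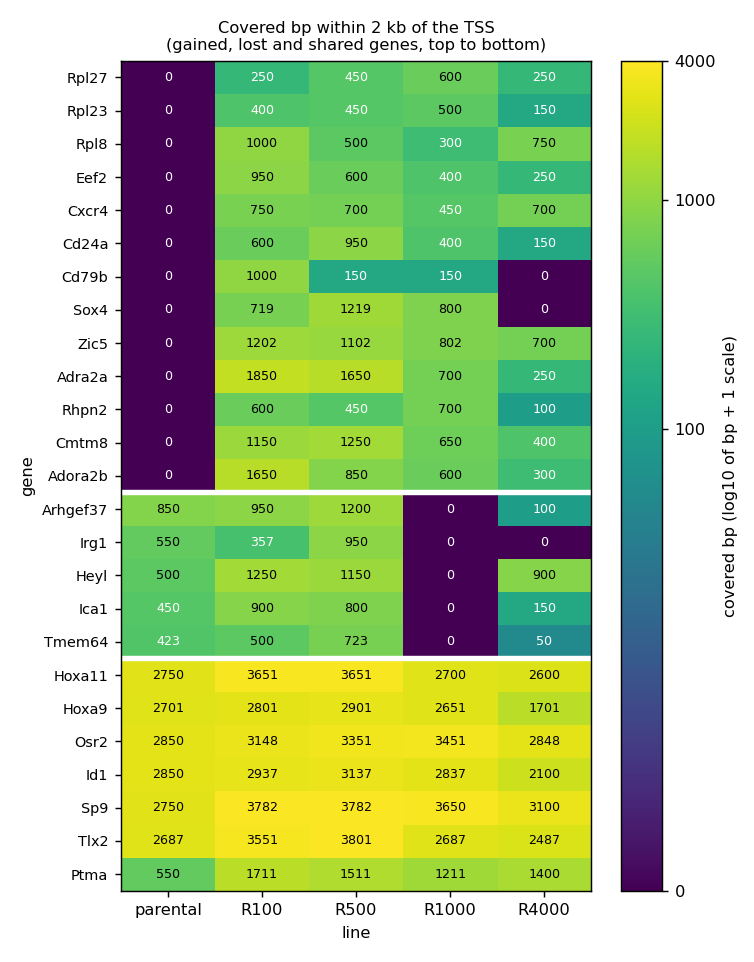
Covered bp within 2 kb of the TSS of named gained, lost and shared genes (rows) in the parental line and the 4 resistant lines (columns), with the bp written in each cell and the colour on a log10 scale of bp + 1. Gained genes stand at 0 in the parental line and between 150 and 802 in R1000, lost genes between 423 and 850 in the parental line and at 0 in R1000.

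Hox genes, which pattern the body axis, kept the mark in both lines. Within 2 kb, 22 of 39 were covered in the parental line and all 22 were shared, with more bases in R1000 in 11 and fewer in 11. Hoxa11 had 2750 and 2700 bp and Hoxa9 2701 and 2651 bp. Hoxa3 had 2750 and 1501 bp, Hoxa2 1151 and 450 bp, and Hoxd10 250 and 700 bp, so that single members moved both ways. In the 5 kb upstream, Hoxb5 and Hoxc13 were gained (5.13% of the list, against 0.855% of all protein-coding genes). Hoxb2 was lost there (2.56%, against 0.625%). These calls depended on the window. Within 2 kb of the TSS, Hoxb2 rose from 600 to 796 bp, Hoxc13 fell from 100 to 50 bp and Hoxb5 stayed at 0 bp. Upstream, Hoxa13 had 3574 and 3424 bp and Hoxa3 3500 and 3200 bp. The other shared genes with the most coverage in both lines around the TSS were Osr2, with 2850 and 3451 bp, Id1, Sp9, with 2750 and 3650 bp, and Tlx2, with 2687 bp in each.

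The other homeobox genes had 5 gains (5.75%, against 1.71% of all protein-coding genes) and 1 loss (1.15%, against 0.463%) of 87 within 2 kb. Uncx, a factor of the somites, had 0 and 450 bp, Six5 and Pitx1 0 and 400 bp each, Vsx1 0 and 300 bp, and Meox1 0 and 150 bp. Outside this window, the parental line had a peak of 150 bp inside Uncx, centred 2877 bp downstream of the TSS. The loss was Gsx2, with 250 bp in the parental line. Hmx2 had the greatest growth of the shared genes on this list, from 725 to 2875 bp, and Otx1 had 250 and 1250 bp. In the LIM homeobox list, none of 12 was gained or lost within 2 kb. Lhx9 and Lhx6 were lost upstream (16.7% of the list, against 0.625% of all protein-coding genes). Around the TSS, Lhx9 had 700 parental and 848 R1000 bp, Lhx6 200 and 100 bp, and Lhx4 650 and 1800 bp. Pax genes had no gain or loss among 8.

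Smaller developmental families changed by single genes within 2 kb, where 1.71% of all protein-coding genes were gained and 0.463% lost. Sox genes had 1 gain (Sox4) and 1 loss (Sox5, 150 bp in the parental line) of 19. T-box genes had 1 gain (Tbx4, 150 bp in R1000) and 1 loss (Tbx1, 150 bp in the parental line) of 17, and forkhead genes 2 gains (Foxa3 and Foxb2, 300 bp each in R1000) and 1 loss (Foxe3, 150 bp in the parental line) of 42. Of 6 Gata genes, Gata4, a heart and gut factor, was lost, with 250 bp in the parental line. The Sox, T-box and forkhead lists thus had both gains and losses, and the Gata list a loss only. Gains made up 5.26, 5.88 and 4.76% of the Sox, T-box and forkhead lists, and losses 5.26, 5.88 and 2.38%. Of the 8 Sox genes with any peak within 2 kb, 7 had more bases in R1000 and 1 fewer. None of 33 bHLH genes was gained or lost, although 6 of 9 shared ones had fewer bases in R1000; Bhlhe23 went against this, with 150 and 1000 bp. Wnt ligands, receptors and antagonists had 2 gains of 40, Sfrp2 and Fzd9, and no loss, and the Fgf, Bmp and Gdf ligands neither gain nor loss among 43, with Fgf9 at 234 and 1434 bp. Krüppel-like factors had no gain or loss among 17, protocadherins 1 gain (Pcdh9) of 36, and potassium channels 1 gain (Kcnk3) and 2 losses (Kcnc1 and Kcnh2) of 94.

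Of the 31 genes of the Polycomb machinery and of H3K27 demethylases, 1 was gained and 1 lost in the 5 kb upstream, where 0.855 and 0.625% of all protein-coding genes were. Pcgf1 and Pcgf3 encode alternative subunits of variant Polycomb repressive complex 1. In the 5 kb upstream, Pcgf1 was free of peaks in the parental line and covered by 400 bp in R1000, whereas Pcgf3 went from 400 bp to 0 bp. Upstream, R100, R500 and R4000 had 150, 50 and 200 bp at Pcgf3. Within 2 kb, Pcgf1 was the only gain among the 31 and none was lost. Cbx8, with 1383 and 1483 bp, Cbx2, with 1050 and 1100 bp, Pcgf2, with 800 and 1050 bp, and Bmi1, with 1050 and 900 bp, were shared. None of 9 DNA methyltransferase and Tet genes was covered by 150 bp in either line.

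In absolute number, few genes of the cell cycle, of the p53 response and of the handling of alkylators were gained or lost. Of 35 cyclins and kinases, 1 was gained within 2 kb (2.86%, against 1.71% of all protein-coding genes). It was Aurka, a mitotic kinase, with 150 bp in R1000. Ccnd2, a D-type cyclin, was shared with 1700 and 2250 bp. All 9 genes of this list with any peak within 2 kb in either line had more covered bases in R1000, which had 3.05 kb in all, against 1.70 kb in the parental line. Cdk6, a partner of D-type cyclins, was lost upstream, with 250 bp in the parental line. Losses upstream were thus 2.86% of this list, against 0.625% of all protein-coding genes. None of 8 cyclin-dependent kinase inhibitor genes was covered by 150 bp in either line. Cdkn2a, deleted in these cells, had no peak in the gene or 5 kb around it in any of the 5 lines. Of 28 genes of the p53 family and its targets none was gained or lost, and of the 12 with any peak within 2 kb, 8 had more bases in R1000 and 3 fewer. Trp73, a p53 relative, had 850 and 1000 bp.

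Of 59 genes of alkylator detoxification and efflux, none was gained within 2 kb and 2 were lost (3.39%, against 0.463% of all protein-coding genes). They were Gstt1, a glutathione transferase, with 150 bp in the parental line, and Abcc3, an efflux pump, with 200 bp. Aldh1a2 was shared, with 1796 and 1900 bp. None of 44 genes of crosslink and double-strand break repair was covered by 150 bp within 2 kb in either line. The clustered histone genes had no gain or loss of 67 within 2 kb. Upstream, Hist1h2be and Hist1h1e were lost (2.99%, against 0.625% of all protein-coding genes), with 200 bp each in the parental line. Of 38 imprinted genes, Phlda2 and Dlk1 were gained within 2 kb, with 400 and 150 bp in R1000, and none was lost. These gains were 5.26% of the list, against 1.71% of all protein-coding genes.

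The widest regions of R1000 alone were 4 of 800 bp. Beside the regions near Gm10567 and Pou3f3 printed above, they were chr1:89160901-89161700, which spans the TSS of Efhd1 with 305 coding bp, and the intronic chr7:144502851-144503650 in Ebf3, a relative of the B-cell factor Ebf1. The next was 750 bp in an intron of Lhx2. All of these 5 were also covered in R100 and R500, over 300 to 800 bp. The nearest parental peak lay 17050, 7750, 350, 50 and 1250 bp away, in the order Gm10567, Pou3f3, Efhd1, Ebf3 and Lhx2. There were 49 R1000-only regions at least 500 bp wide and 34 parental-only ones. Among the widest of the parental line alone were regions of 750 bp in an intron of Arhgef37, 700 bp at S1pr5, 650 bp in Gm53 beside the Hoxb cluster and 600 bp in Kiss1. R100 covered 350, 450, 650 and 400 bp of these 4. The nearest R1000 peak lay 20150, 300, 250 and 150 bp from them, so several one-line regions bordered on peaks of the other line.

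At Cpd, a carboxypeptidase gene on chromosome 11, a region of R1000 alone and a region of the parental line alone lay near each other. R1000 alone covered 700 bp over the TSS, chr11:76660201-76660900, and the parental line alone covered 600 bp at chr11:76662051-76662650, 1531 bp upstream. This pair was noticed after the values were seen. The lines were not split cleanly there, since a parental peak lay 300 bp from the R1000-only region. An R1000 peak lay 200 bp from the parental-only region. Of the shared regions, R1000 covered more bases in 1389, fewer in 1176 and as many in 446. The region at Slc43a1, an amino acid transporter, had 400 bp under parental and 1650 bp under R1000 peaks, and the one beside Hmx2 over 250 and 1350 bp. In the other direction, a CpG-poor intergenic region 9778 bp from the TSS of Tmem64 had 1600 and 500 bp, the region in Hoxa2 1300 and 350 bp, and the one in Isl2 1100 and 200 bp.

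Repeated DNA held some of the largest values and was set apart. Of the 12 predicted gene models in the first 40 kb of assembled chromosome 9, chr9:3000001-3040000, 11 were gained in each window, and several of them led the ranking by covered bases. The stretch had no parental peak and, from R100 to R4000, 4950, 3350, 5150 and 6150 bp under peaks. It is a tandem array: bases 234 bp apart were identical at 69.4% of positions. The 80 bases at the start of the widest R1000 peak there and the 80 bases 233 bp further on, where capitals mark the bases that differ from the first copy, show the repeat.
Chromosome 9, chr9:3025401-3025480: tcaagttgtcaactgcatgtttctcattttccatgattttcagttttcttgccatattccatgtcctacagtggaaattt
Chromosome 9, chr9:3025634-3025713: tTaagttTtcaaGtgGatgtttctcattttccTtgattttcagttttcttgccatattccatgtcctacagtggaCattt
The copies had 74 of 80 bases in common. Reads of such arrays often match several places. Without these models the gained and lost genes upstream were 179 and 139. The shared region with the largest difference lay over ribosomal RNA sequence, which is also known to be present in many copies. It spans 5950 bp at chr17:39979851-39985800, at the locus annotated as AY036118. Parental peaks covered 1750 bp of it, those of R4000 5900 bp, and those of the other lines all 5950 bp.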

How the data were processed

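H3K27me3 ChIP-seq peaks were analysed. RRBS samples were not analysed here. Immunoprecipitated and input libraries were compared by the authors in tiled windows with Poisson statistics. They deposited chromosome, start and end only, so values are positions in bp. The submitters' processing notes name Bowtie and mm9. The study's promoter grouping set a p-value limit per bin and its profiles had replicates. Whether the deposited lists used that limit or pooled the replicates is not given in the sources used here. All ends lay within NCBIM37 chromosome lengths, and starts and ends fell on a grid of 50 bp.

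Distinct rows were used, since R100 and R500 list each peak 2 times. Positions were counted from 1, ends included, and 1 GENCODE vM1 entry was kept per symbol and chromosome (22225 of 22367). Window coverage was tested on simulated peaks, where 0 of 900 windows differed from counting each base. Python 3.11.15, numpy 2.4.6, pandas 2.3.3, scipy 1.17.1 and matplotlib 3.10.9 were used. With 1 list per line, shares carry 95% Wilson intervals and no test was run.

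Members, lists and tests were chosen with earlier results of these data known. Named genes were the 8 gained, 8 lost and 6 shared with most covered bp in each window, up to 4 gained and 4 lost per list, and the widest or most changed regions; the chromosome 9 models were named only as a group, and exceptions are stated. No sequence of chromosome 18 is printed. Results on some items that these rules would name are not reported here. The homeobox list was corrected after values were seen, since a pattern for En1 and En2 had taken Eno1, Eno2, Eno3 and Enc1.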

Additional observations from a re-analysis of the deposited data

How the results depend on the processing

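With 1 list per line and unknown depth, no setting gives a replicate check. For peaks at least 500 bp wide, R1000 exceeded the parental line, with ratios of 1.14 in number and 1.17 in length, and for peaks at least 100 bp wide the ratio of length was 1.01. The shares of parental and R1000 peaks found in the other list were 20.9 and 21.9% at an overlap of 50%, and 52.8 and 59.2% within 1000 bp. With 9595 peaks in both lists, 29.4% of parental peaks were found. Gained and lost promoters numbered 391 and 155 (ratio 2.52) within 5 kb on both sides, 716 and 597 with a minimum of 50 bp, 52 and 35 with 300 bp, and 322 and 259 when under 150 bp in the other line was allowed. Within 2 kb on both sides, 381 were gained, a ratio of 3.70. More genes were gained than lost in every setting run, with ratios of 1.20 to 3.70. Of R1000-only and parental-only regions, 45.2 and 22.7% lay within 2 kb of a TSS. Among regions at least 150 bp wide, 68.4 and 48.0% lay within 5 kb, and 71.7 and 45.3% were present in R100, 71.4 and 49.1% in R500, and 27.5 and 15.6% in R4000. The removal of the chromosome 9 models was added after seeing the data and gave a ratio of 1.29. The cause of these shifts was not tested.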

Other observations

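The exchange of regions was uneven along the genome. On chromosome 6, which carries the Hoxa cluster, 960 regions were parental only and 483 R1000 only, and the ratio of R1000 to parental peaks was 0.643. On chromosome 1, the counts were 858 and 533, with a ratio of 0.734. Chromosomes 17 and 5 went the other way, with 229 parental-only and 319 R1000-only regions on chromosome 17 (ratio 1.24) and 270 and 341 on chromosome 5 (ratio 1.16). From genome sequencing, the paper reports no new large structural variants and no potential copy number variants in any line. Copy number was not analysed here, and its part in these values was not tested.

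Ptma, which encodes the abundant nuclear protein prothymosin alpha and belongs to none of the lists, was chosen after its values were seen. Within 2 kb of its TSS, peaks covered 550 parental and 1211 R1000 bp, with 1711, 1511 and 1400 bp in the other 3 lines by rising dose. An R1000-only region of 650 bp followed further inside the gene, chr1:88425101-88425750, with 3 exonic bp.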
